A study of Mus musculus with 12 samples.

Results

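Untreated LLC1 cells, a cultured Lewis lung carcinoma line of the mouse, were profiled for microRNAs (miRNAs) on 3 Agilent 1-colour arrays, the control group of a series of 12 arrays. The members were chosen by their label: the 3 arrays titled as control replicates 1 to 3. The control cells received no irradiation, and the labels give no other agent, time or genotype. The other 9 arrays, from cells irradiated with a single 2 Gy dose, a single 10 Gy dose or 5 fractions of 2 Gy, with RNA taken at 4 h, were not used here. The 3 control samples are described as biological replicates, with no statement of separate cultures, and the line was grown in culture, in medium with serum and antibiotics, with no host tissue named. All 3 arrays were on 1 slide and carry 1 scan time.

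A miRNA is cut from a hairpin precursor, and the strand from its left arm (5p) or right arm (3p) is loaded into an Argonaute protein while the other is mostly lost. Bases 2 to 8 of the loaded strand, the seed, pair with target messenger RNAs, so miRNAs that share a seed form a family with overlapping targets. In tumours, let-7 is known for restraining growth, the miR-17-92 cluster for promoting it, and miR-21 for being raised in many carcinomas. Each array carried 566 mouse entries, an entry being 1 mature miRNA name. Its level below is the scanner software's total signal for the entry, as a percent of the summed signal of the entries that the software's flag marks as detected on all 3 arrays. These shares describe array signal and not copy number. The brightest probe of an entry exceeded the next probe of the same entry by 1.98-fold in the median of 60 entries and by up to 7.34-fold (miR-125b-5p), so ranks between miRNAs also carry the probes' own brightness.

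The sequences that carry the abundant families are shown 5′ to 3′ with the seed in capitals, as RefSeq gives them with GRCm38.p6. The let-7 family shares the seed GAGGUAG in all 9 members on the array:
let-7a-5p: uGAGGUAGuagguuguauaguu
let-7f-5p: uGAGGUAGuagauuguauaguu
let-7c-5p: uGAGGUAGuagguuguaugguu
let-7b-5p: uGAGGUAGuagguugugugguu
let-7i-5p: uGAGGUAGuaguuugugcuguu
let-7d-5p: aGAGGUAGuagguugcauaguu
let-7e-5p: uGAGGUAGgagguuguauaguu
let-7g-5p: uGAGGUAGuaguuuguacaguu
miR-98-5p: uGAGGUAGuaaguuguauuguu

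The miR-17 clusters encode several seeds. The seeds with the highest summed shares, those of miR-20a, of miR-19 and of miR-92a, are shown with their members detected on all 3 arrays:
miR-20a-5p: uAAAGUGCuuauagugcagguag
miR-20b-5p: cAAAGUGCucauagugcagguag
miR-106b-5p: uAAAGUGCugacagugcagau
miR-93-5p: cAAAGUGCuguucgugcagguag
miR-19b-3p: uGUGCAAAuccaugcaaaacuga
miR-19a-3p: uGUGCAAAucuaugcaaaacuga
miR-92a-3p: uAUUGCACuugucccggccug
miR-25-3p: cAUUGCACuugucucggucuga

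The remaining sequences belong to the brightest single entries, to both pairs of arms detected on every array, and to a pair of miR-200 family members that were not detected:
miR-21a-5p: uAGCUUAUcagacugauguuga
miR-125b-5p: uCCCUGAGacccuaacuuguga
miR-29a-3p: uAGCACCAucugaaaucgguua
miR-29b-3p: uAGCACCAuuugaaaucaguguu
miR-1224-5p: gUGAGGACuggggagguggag
miR-494-3p: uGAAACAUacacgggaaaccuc
miR-199a-5p: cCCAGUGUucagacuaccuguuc
miR-199a-3p: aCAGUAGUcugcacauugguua
miR-31-5p: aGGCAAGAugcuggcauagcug
miR-31-3p: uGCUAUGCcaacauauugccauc
miR-200b-3p: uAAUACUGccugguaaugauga
miR-141-3p: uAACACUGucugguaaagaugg

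Of the 566 entries, 60 (10.6%) were detected on all 3 arrays, 34 on 2, 25 on 1 and 447 (79.0%) on none. The arrays differed in brightness: the summed signal of the 60 entries was 23241 on replicate 1, 7078 on replicate 2 and 41290 on replicate 3, and the number detected was 94, 60 and 119. The detected sets were nested. All 60 entries of replicate 2 were detected on replicate 1, and all 94 of replicate 1 on replicate 3. The repertoire common to the 3 arrays was thus that of the dimmest array, and without replicate 2 it held 94 entries. Under the stricter condition that over 0.5 of an entry's spots lie well above background, it held 37. The lowest detected signal was 0.0279% of the sum on replicate 1, 0.179% on replicate 2 and 0.0157% on replicate 3. The lowest values of replicates 1 and 3 came from entries with 4 probes. Among entries with 2 probes, which include all but 1 of the 60 entries, the lowest detected share was 0.0552, 0.179 and 0.0310%. These serve below as a nominal limit for an entry not detected. That every undetected entry lay below it was not tested, since detection is the software's flag. No spot was saturated (0 on each array).

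**Figure D1:**
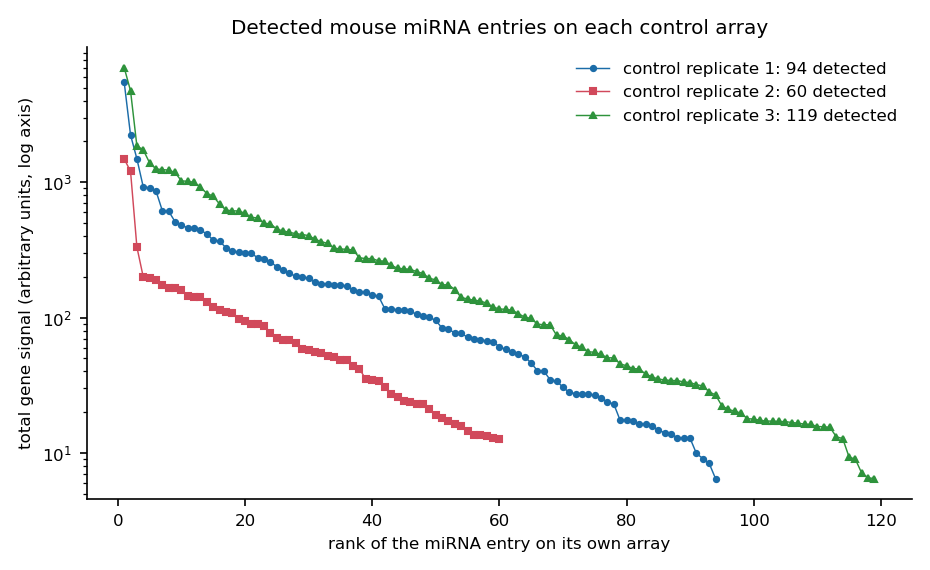
Total gene signal (arbitrary units, log axis) of each detected mouse entry against its rank on its own array, with 1 line per control array. Replicate 2 lies below both other arrays throughout and ends at 60 entries, against 94 on replicate 1 and 119 on replicate 3.

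The signal was concentrated in few entries. The 10 highest held 58.7, 58.8 and 54.8% of the sum on replicates 1, 2 and 3 (57.5% ± 2.27, SD, n = 3), and the 20 highest held 75.4% ± 1.75. The 30 lowest of the 60 held 13.7% ± 1.5. From the highest to the lowest of the 60 the mean share spanned 135-fold, with a median of 0.877%. Of the 20 highest, 20, 16 and 20 were also among the 20 highest of replicates 1, 2 and 3 taken alone, and 16 were so on each array. Neighbours in the ranking were mostly not separated: of the 19 neighbouring pairs among the 20 highest, 4 kept their order on all 3 arrays.

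The highest entry was miR-720_v18.0, with 23.6, 21.0 and 17.03% of the signal on replicates 1, 2 and 3 (20.6% ± 3.32, SD, n = 3). It ranked 1 on every array. Its name carries a version tag, and miR-720 is known as a fragment of transfer RNA and not a canonical miRNA. MiR-21a-5p, a miRNA raised in many carcinomas, came next with 9.62, 17.02 and 11.5% (12.7% ± 3.85), ranked 2 on every array and was the highest entry outside the list of rRNA, tRNA, repeat or GC-rich entries. Among the entries outside that list its share was 14.8, 22.3 and 15.1% (17.4% ± 4.25). Below these the levels dropped to 4.29% ± 0.37 for miR-125b-5p, a regulator of p53 and of apoptosis factors, which took 3.97, 4.69 and 4.20%.

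Ranks 4 and 5 were held by entries that differed in steadiness. MiR-1224-5p, cut from a short intron without Drosha, took 6.41% on replicate 1, 0.994% on replicate 2 and 3.37% on replicate 3 (3.59% ± 2.71), and ranked 3, 25 and 5 on these arrays. Its place rested on replicates 1 and 3. MiR-29a-3p, which represses collagens and DNA methyltransferases, took 3.91, 2.32 and 4.48% (3.57% ± 1.12). The values of these 2 entries overlapped widely, so their order is not established. MiR-19b-3p (2.70% ± 0.28), let-7a-5p (2.61% ± 0.48), miR-29b-3p (2.56% ± 0.52), let-7f-5p (2.48% ± 0.50) and miR-199a-3p (2.40% ± 0.43) completed the 10 highest and did not differ beyond their spread.

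**Figure D2:**
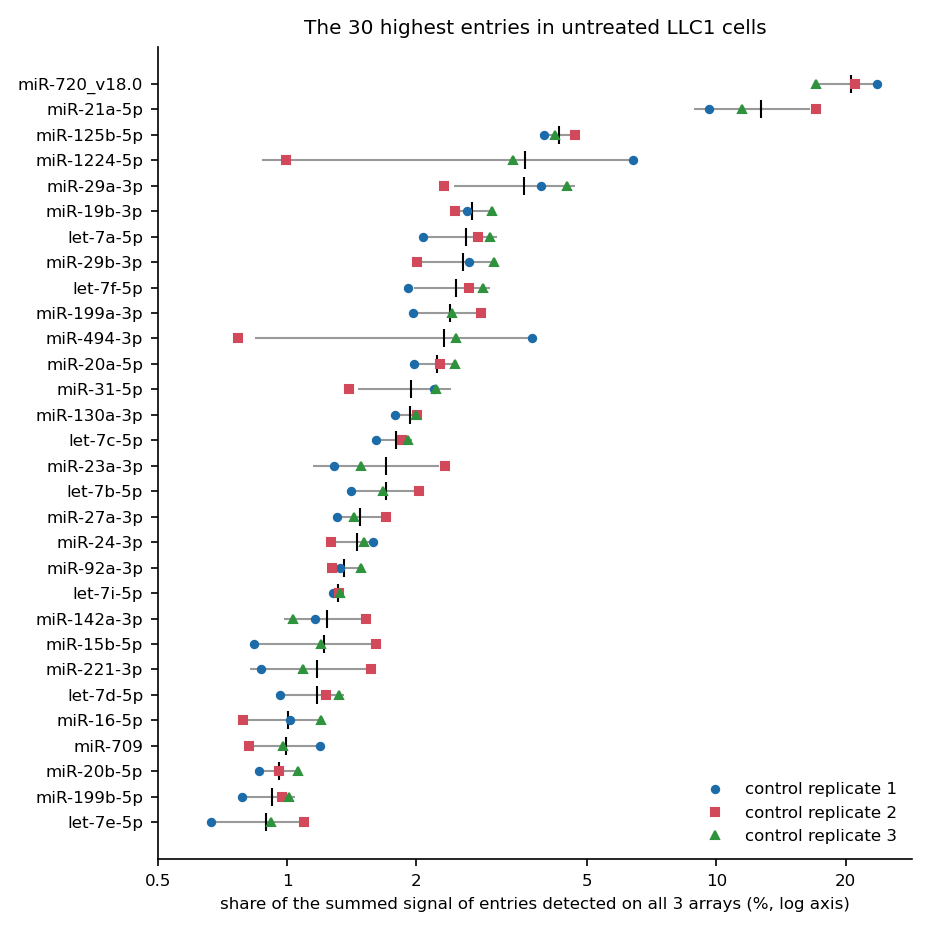
Share of the summed signal (%, log axis) of the 30 highest entries on each control array, with the mean as a vertical tick and 1 SD as a grey line. MiR-720_v18.0 and miR-21a-5p stand above the rest on all 3 arrays, while miR-1224-5p and miR-494-3p reach far to the left on replicate 2.

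Counts of members detected on all 3 arrays, here and below, stand against 10.6% of all 566 entries. Grouped by seed, the let-7 family had the highest mean share. Its 9 5p members, all of those on the array, were detected on every array and together took 10.8, 14.0 and 14.1% of the signal (13.0% ± 1.88, SD, n = 3). This overlapped the share of miR-21a-5p, so the order of the let-7 family and miR-21 is not established. Within the family the levels ran from let-7a-5p and let-7f-5p through let-7c-5p (1.79% ± 0.16), let-7b-5p (1.70% ± 0.31), let-7i-5p (1.31% ± 0.03) and let-7d-5p (1.17% ± 0.19) to let-7e-5p (0.892% ± 0.216) and let-7g-5p (0.863% ± 0.118). MiR-98-5p, which shares the seed, was the lowest of the 60 entries at 0.120, 0.192 and 0.146% (0.153% ± 0.036). Members resemble each other closely: of the 36 pairs, 4 differ at 1 position and 14 at up to 2. The signal that near-identical members lend to each other's probes was not tested. Let-7a-5p was above let-7f-5p, from which it differs at 1 position, on every array, by less than the spread of either over arrays.

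The miR-17 clusters, which drive proliferation under MYC, held 10 entries detected on all 3 arrays of 22 on the array, with 10.2, 9.90 and 11.9% of the signal (10.68% ± 1.09). The range of the let-7 share overlapped this range, although let-7 was the higher on each of the 3 arrays. By seed, the AAAGUGC members took 4.64% ± 0.47, led by miR-20a-5p with 1.98, 2.27 and 2.46%. The GUGCAAA members miR-19b-3p and miR-19a-3p took 3.47% ± 0.34, although they differ at 1 position and their shares were 2.70% and 0.776%. The AUUGCAC members miR-92a-3p (1.36% ± 0.11) and miR-25-3p (0.466% ± 0.090) took 1.83% ± 0.20, while miR-92b-3p and miR-363-3p of that seed were detected on no array.

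The primary transcript of miR-17 also carries miR-18a, miR-19a, miR-20a, miR-19b-1 and miR-92a-1. Of its entries detected on every array, RefSeq places 4 in no other cluster. They ranged from 0.185% for miR-17-3p to 2.24% for miR-20a-5p, a span of 12.1-fold. Its miR-18a-3p, detected on no array, and miR-20a-3p, detected on replicate 3 alone (0.017%), are not part of this span. The span can also hold the difference between the arms of a hairpin. Apart from miR-17-3p, the lowest of these entries was miR-18a-5p at 0.558%. MiR-19b-3p and miR-92a-3p also arise from the related cluster on which miR-20b lies, so their signal cannot be assigned to either. The entry miR-17_v17.0, an older name without an arm, was detected on replicates 1 and 3, with 0.297 and 0.322%, and not on replicate 2. Of the entries specific to the related cluster, miR-20b-5p (0.959% ± 0.099) was detected on every array and miR-106a_v17.0 on replicates 1 and 3, at 0.262 and 0.274%. MiR-18b-5p and miR-363-3p were detected on no array. The cluster of miR-25, miR-93 and miR-106b gave all 3 members, at 0.466%, 0.651% and 0.791%.

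The miR-29 family took 6.56, 4.33 and 7.52% (6.14% ± 1.63), the sum of miR-29a-3p and miR-29b-3p. MiR-29c-3p was detected on replicates 1 and 3 at 0.221 and 0.280%. The miR-125 family (4.71% ± 0.30) was almost wholly miR-125b-5p, beside 0.426% ± 0.093 for miR-125a-5p. The miR-15, miR-16 and miR-322 family, regulators of the cell cycle, took 3.28% ± 0.45, led by miR-15b-5p (1.22% ± 0.39) and miR-16-5p (1.00% ± 0.21). MiR-15a-5p and miR-322-5p added 0.472% and 0.593%. MiR-31, whose gene is often altered in lung tumours, gave both arms (2.43% ± 0.48).

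MiR-23a-3p and miR-27a-3p, from neighbouring hairpins, took 1.70% ± 0.56 and 1.48% ± 0.20. MiR-24-3p took 1.45% ± 0.16 and arises both from their cluster and from that of miR-23b and miR-27b, so it cannot be assigned to either. The paralogues of miR-23a-3p and miR-27a-3p were dimmer: miR-23b-3p stood at 0.385% ± 0.052 and miR-27b-3p at 0.295% ± 0.028, and miR-27a-3p lay above miR-27b-3p on every array. These last miRNAs differ at 1 position. The miR-130 and miR-301 family took 2.13% ± 0.18, nearly all of it miR-130a-3p (1.93% ± 0.13). MiR-221-3p, an inhibitor of the cell cycle brake p27, took 1.18% ± 0.36, while miR-222-3p of the same cluster was detected on replicates 1 and 3 at 0.354 and 0.279%. Smaller shares were those of the miR-34 and miR-449 family (1.27% ± 0.29, miR-34b-5p and miR-34c-5p), miR-26 (0.998% ± 0.232), miR-103-3p with miR-107-3p (0.698% ± 0.213), miR-193a-3p with miR-365-3p (0.603% ± 0.065), miR-22-3p (0.528% ± 0.301), miR-99b-5p (0.370% ± 0.158), miR-212-3p (0.252% ± 0.060) and miR-10b-5p (0.208% ± 0.035).

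**Figure D3:**
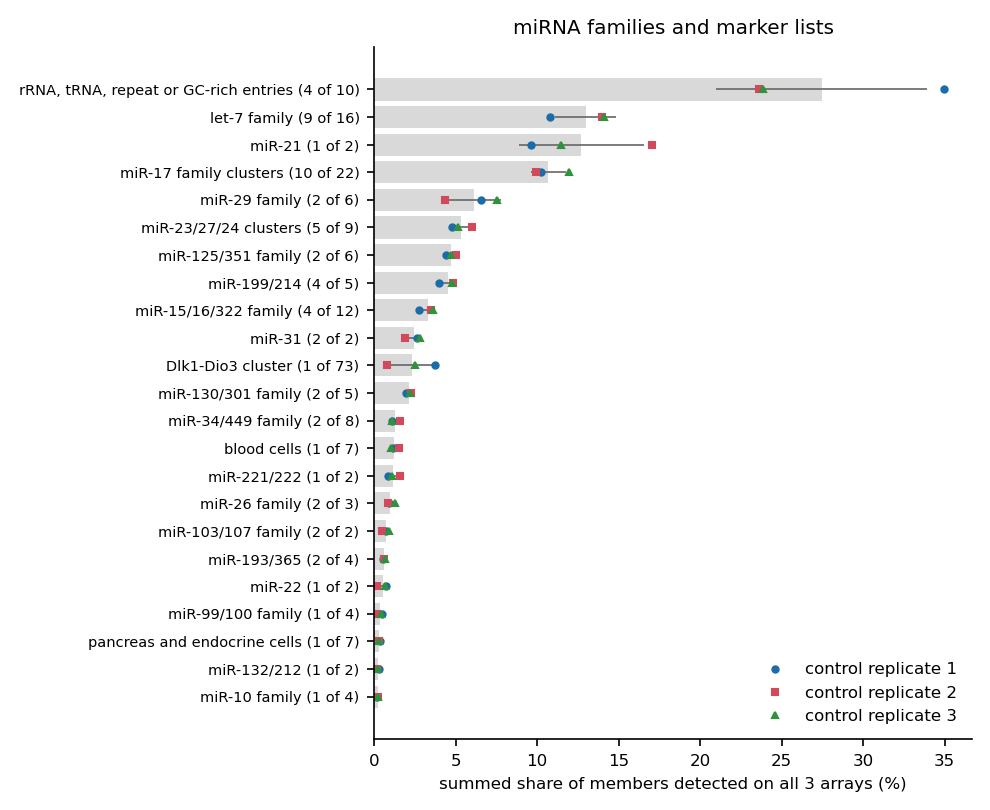
Summed share of signal (%) of the 23 lists with at least 1 entry detected on all 3 arrays, as bars for the mean with 1 SD and a point for each array, labelled with the number of detected and of all entries. Lists can share entries, and miR-494-3p stands in both the Dlk1-Dio3 list and that of rRNA, tRNA, repeat or GC-rich entries.

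Several families present in many cell types were weak or not detected. The counts of undetected members here and below stand against 79.0% of all 566 entries detected on no array, so a short list with none detected is common and is not a result about that list. The miR-30 family, tied to differentiation and autophagy, had 0 of 10 entries detected on all 3 arrays, against 10.6% of all entries. On at least 1 array, 5 of its 10 entries were detected, against 119 of all 566. Its 5 5p members were detected on replicate 3, at 0.135% for miR-30b-5p and at 0.084% or less for the others, and 3 of them on replicate 1. None of the 6 miR-181 entries and none of the 4 miR-191 and miR-425 entries was detected on any array. Averaged over the 3 arrays, spots of the miR-181 entries had a processed signal of -1.78 to 8.15 and those of miR-191 and miR-425 of -9.54 to 5.57. Negative-control spots averaged 7.37 to 8.02 per array, so none of the miR-191 and miR-425 entries reached the negative-control means, and the highest miR-181 entry was close to them. MiR-210-3p, the hypoxia miRNA, was detected on replicates 1 and 3 at 0.199 and 0.423%. MiR-155-5p (0.070 and 0.101%) was seen on the same arrays, and miR-146a-5p on replicate 3 alone (0.043%).

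Of the 13 lists of cell type markers, 7 had no entry detected on any array. No epithelial or mesenchymal reference sample was among the arrays. The miR-200 family with miR-141 and miR-429, which holds epithelial cells in their state by repressing Zeb1 and Zeb2, had 0 of 9 entries detected on any array, with a mean processed signal of -6.00 to 2.12. MiR-205 and miR-203 of squamous epithelium (0 of 3 entries) and miR-449 of ciliated cells (0 of 3) were not detected either. Of these epithelial entries, 5 of the 9 of the miR-200 family and 2 of the 3 of miR-205 and miR-203 have 2 probes, for which the limit was 0.0310% on replicate 3. Each of the 3 lists is short against the 79.0% of entries detected on no array. The miR-449 list leaves out miR-34b-5p and miR-34c-5p of the same family, which were detected on every array (1.27% ± 0.29). Of the cluster of miR-183, miR-96 and miR-182, miR-96-5p (0.122%) and miR-182-5p (0.037%) were detected on replicate 3 alone. Of the mesenchymal list of miR-199a, miR-199b and miR-214, 4 of the 5 entries were detected on every array, against 10.6% of all entries. The list took 3.99, 4.82 and 4.74% of the signal (4.52% ± 0.46). MiR-199a-3p led it at 1.97, 2.82 and 2.42%, followed by miR-199b-5p (0.922% ± 0.122), miR-199a-5p (0.732% ± 0.042) and miR-214-3p (0.460% ± 0.110). The other fibroblast and smooth muscle markers did not accompany it: miR-143-3p was detected on replicates 1 and 3 at 0.061 and 0.110%, and both miR-145a entries on none.

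Blood cell markers were split. MiR-142a-3p, a miRNA of blood cells, took 1.16, 1.53 and 1.03% (1.24% ± 0.26) and ranked 22 of 60, and miR-142a-5p was detected on replicates 1 and 3 at 0.146 and 0.153%. The other 5 blood cell entries, miR-223-3p, miR-451a, miR-144-3p and both arms of miR-150, were at 0 detections on all arrays. In a bulk sample a few cells with much of an RNA and many cells with little cannot be told apart, and a part of other cells in this signal was not tested. MiR-126a of endothelium (0 of 2 entries), nerve cell markers (0 of 9), liver and gut markers (0 of 4) and pluripotency clusters (0 of 22) were not detected on any array. Of all 566 entries, 79.0% were detected on none. Among muscle markers, 1 of 8 was detected, miR-206-3p on replicate 3 at 0.031%. Among pancreatic and endocrine markers, 1 of 7 was, miR-7a-5p (0.315% ± 0.021), which many cell types express.

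The imprinted Dlk1-Dio3 cluster, active in the embryo and in stem cells, had 73 entries on the array, of which 72 were detected on no array (against 79.0% of all entries). The exception was miR-494-3p, with 3.71% on replicate 1, 0.770% on replicate 2 and 2.48% on replicate 3 (2.32% ± 1.48), which ranked 11. It also stands in the list of rRNA, tRNA, repeat or GC-rich entries, which with miR-720_v18.0, miR-1224-5p and miR-709 (0.995% ± 0.188) took 34.9, 23.6 and 23.8% of the signal (27.5% ± 6.47). The GC content of miR-494-3p was 45.5%, near the median of 43.5% of the entries detected on all 3 arrays. That the signal of the listed entries arises from such sources was not tested. On replicates 1 and 3 alone, miR-690 of that list (0.913 and 0.773%) and miR-689_v15.0 (1.12 and 0.636%) were the highest of the 34 entries detected on 2 arrays. The Sfmbt2 intron cluster (0 of 24 entries) and the X-linked testis cluster (0 of 27) were not detected at all. Of 41 lists, 11 had no entry detected on any array, and these held 113 of the 447 entries detected on none. The number of such lists was 14 without replicate 3 and 15 under the stricter condition on spots.

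Among hairpins with both arms on the array, copies of a hairpin counted as 1, 38 had an arm detected on all 3 arrays. In 30 of the 38 the other arm was detected on no array, and in 6 on 1 or 2 arrays. The 5p arm was the brighter in 26 hairpins and the 3p arm in 12, but where the other arm was not detected the detected arm is the brighter by construction. An arm not detected was set to the lowest detected signal of 2-probe entries on that array. The ratio is then a lower bound only if the undetected arm lay below that signal, which was not tested. Each "at least" below carries this condition. The limit was highest, as a share, on replicate 2. For miRNAs with several gene copies, the array can hold the other arm of 1 copy only. MiR-21a had its 5p arm 225-fold brighter on replicate 1, at least 95.4-fold on replicate 2 and 135-fold on replicate 3. MiR-21a-3p was detected on replicates 1 and 3 at 0.043 and 0.085%. MiR-29a had its 3p arm at least 70.9-fold brighter on replicate 1, at least 13.0-fold on replicate 2 and at least 144.7-fold on replicate 3. MiR-125b had its 5p arm brighter by at least 36.0-fold, 13.1-fold and 67.8-fold against 2 entries of the other arm. For miR-22 the bound was 1.03-fold on replicate 2, which says little of the arms there. In all 7 let-7 hairpins with both arms on the array, the 5p arm was detected on every array and the other on none. The 3p arm was the brighter for miR-19a, miR-22, miR-24, miR-27a, miR-27b, miR-29a, miR-29b, miR-92a, miR-142a, miR-193a, miR-199a and miR-214. Within the miR-17 transcript, the arm detected on every array was the 5p arm for miR-18a and miR-20a and the 3p arm for miR-19a.

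In 2 hairpins both arms were detected on all 3 arrays. For miR-31 the 5p arm took 2.20, 1.39 and 2.23% and the 3p arm 0.432, 0.497 and 0.556%, a ratio of 5.09, 2.80 and 4.01 (mean 3.85-fold; log2 1.95 ± 0.43, SD, n = 3). For miR-199a the 3p arm was the brighter, at 1.97, 2.82 and 2.42% against 0.747, 0.685 and 0.765%, a ratio of 2.63, 4.12 and 3.16 (mean 3.25-fold; log2 of 5p over 3p -1.70 ± 0.32). The direction was the same on every array in both. No test was made over 3 arrays, and a ratio between arms also holds the difference between their probes. For miR-199a the 5p side leaves out miR-199b-5p (0.922% ± 0.122) of the related hairpin. A part of miR-199b in the 3p signal was not tested, so the ratio cannot be assigned to the miR-199a hairpin alone.

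**Figure D4:**
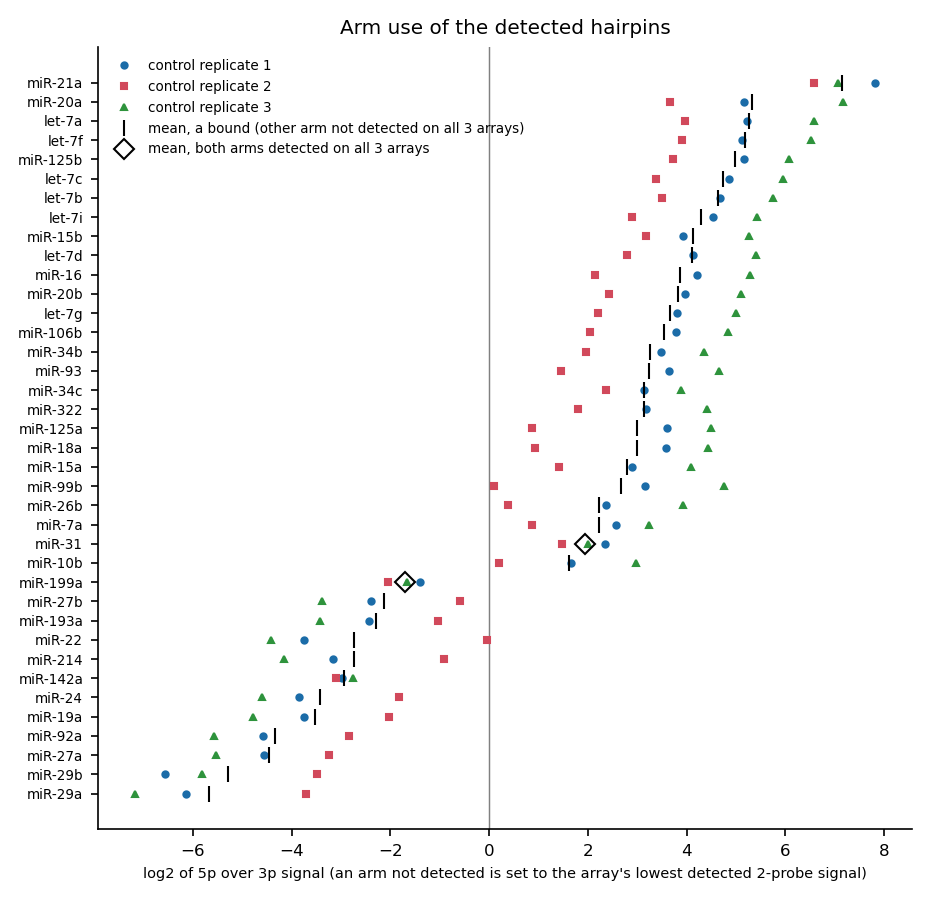
Log2 of the 5p over the 3p signal of 38 hairpins on each control array, with the mean as a tick where it is a bound and as a diamond where both arms were detected on all 3 arrays. Points of replicate 2 lie nearest to 0 for all hairpins except miR-142a and miR-199a, and an arm not detected is set to its lowest detected 2-probe signal, 0.179% of the sum.

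The share of an entry had a median coefficient of variation (CV, SD over mean) of 18.6% over the 3 arrays, from 2.03% to 75.6%. The 5 steadiest entries were let-7i-5p, miR-199a-5p, miR-34b-5p, miR-130a-3p and miR-7a-5p, with a CV of 2.03 to 6.75%. The 5 least steady were miR-1224-5p (75.6%), miR-494-3p (63.7%), miR-22-3p (57.0%), miR-99b-5p (42.7%) and miR-34c-5p (41.2%). Of the 60 entries, 27 had their lowest share on replicate 2 and 18 their highest. Relative to the mean of replicates 1 and 3, the log2 share on replicate 2 differed by -2.22 for miR-1224-5p, -1.98 for miR-494-3p, -1.93 for miR-22-3p and -1.25 for miR-99b-5p. It was higher by 0.95 for miR-34c-5p, 0.82 for miR-17-3p, 0.76 for miR-23a-3p and 0.70 for miR-21a-5p. Between replicates 1 and 3 no entry differed over 2-fold (0 of 60), against 5 between replicates 2 and 1 and 5 between replicates 2 and 3. The part of brightness in these differences was not tested.

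**Figure D5:**
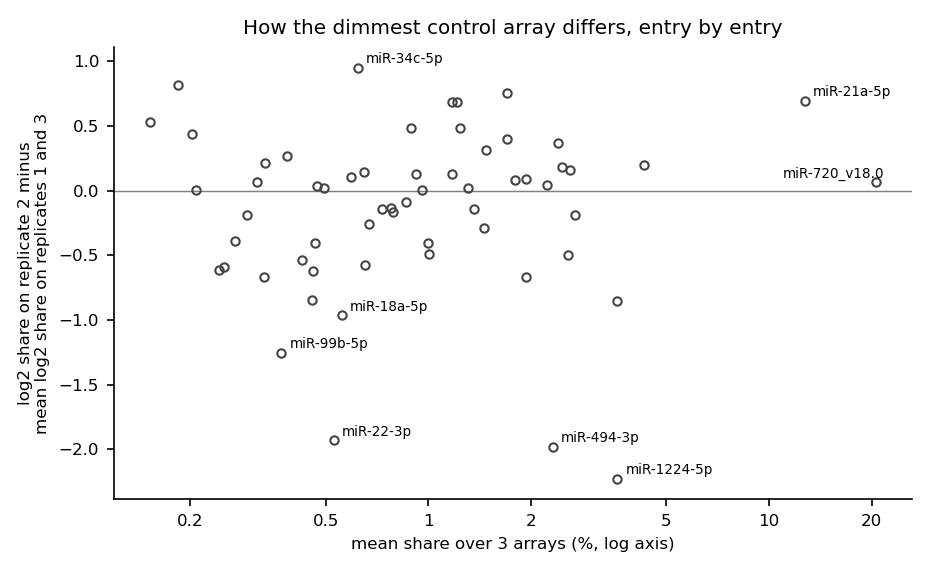
Log2 share on replicate 2 minus the mean log2 share on replicates 1 and 3, against the mean share (%, log axis), for the 60 entries detected on all 3 arrays. MiR-1224-5p, miR-494-3p and miR-22-3p lie near -2, and miR-21a-5p lies at 0.70.

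RefSeq held a mature sequence for 55 of the 60 entries, which carried 33 seeds, and 33 of them fell into 11 seeds with more than 1 detected member. A 5′ uridine, which Argonaute favours, opened 34 of the 55 (61.8%), against 20 of 45 (44.4%) of the entries detected on 1 or 2 arrays and 134 of 366 (36.6%) of those detected on none. The median GC content was 43.5, 47.8 and 47.5% in these groups, and the median length was 22 nucleotides in each. Members of a family share bases and are not independent, so these shares are given as a description.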

How the data were processed

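The labels' protocols give a mirVana isolation and Cy3 labelling of 100 ng RNA. The submitters' processing notes name Feature Extraction 10.7.3.1 (Agilent), and the deposited scanner files hold its spot intensity, not log-transformed. The total gene signal is the software's combined signal of all probes of an entry, listed as 0.1 where the entry is not detected, and detection is the software's flag. The authors' deposited log2 table holds log2 values: the processed signal, raised to 1 where lower, was put on that scale and shifted by 1 constant per array (0.27, 0.51 and -0.23), a rule that matches every spot within 1e-04. It served as an alternative.

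Entries of control type 0 with a mouse name were used. Each array was divided by its sum over entries detected on all 3 arrays. No groups were compared and no test was run; the number of arrays limits the precision, and values are mean ± SD. Ranking, and the direction of arm ratios where both arms were detected on all 3 arrays, were tried on simulated data. The simulated scatter between arrays was smaller than that seen here. The counts of brighter arms and the bounds were not tried. Python 3.11.15, pandas 2.3.3 and limma 3.58.1 (normexp alternative) were used. The array design is of mm9 and the sequences of GRCm38.p6, so no coordinates are given. Names matched 466 of 566 entries, exactly and without a version tag (22 entries carry one). Clusters are hairpins within 10000 bases on 1 strand. The named miRNAs are the 20 highest, list members, arm pairs, and the 5 steadiest and 5 least steady. The arrays were taken by label; that these members and lists are described was decided with earlier results of these data known. No 2 arrays were identical.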

Additional observations from a re-analysis of the deposited data

Results flagged for a closer look

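The herpesvirus entry mghv-miR-M1-2-3p, which lies outside the mouse entries, was called detected on control replicate 2 with a total signal of 7.33, and on neither brighter array. On each array 0 of its 20 spots were well above background, and its mean processed signal was 11.2, 15.8 and 8.67 on replicates 1, 2 and 3, against 7.98, 8.02 and 7.37 for negative-control spots.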

How the results depend on the processing

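MiR-720_v18.0 and miR-21a-5p kept ranks 1 and 2 in all 11 settings tried, and 19 or 20 of the 20 highest entries stayed among the 20 highest in each; miR-1224-5p ran from rank 3 to 11 and miR-494-3p from 6 to 17 with 1 array left out. The share of the 10 highest entries was 51.6% without the rRNA, tRNA, repeat or GC-rich entries, 59.95% with the brightest probe, 47.0% with normexp, 54.9% with all mouse entries in the sum and 54.4 to 58.8% with 1 array left out. Without the rRNA, tRNA, repeat or GC-rich entries let-7 took 17.8% and the miR-17 clusters 14.8%, and the latter took 12.3% with normexp. Entries detected numbered 94 on at least 2 arrays, 37 by spots well above background and 60 to 94 with 1 array left out. Counting only hairpins with both arms detected on all arrays left 1 with the 5p and 1 with the 3p arm brighter. Without replicate 2 the counts were 36 and 16, and without replicate 1 or replicate 3 they were 26 and 12. The limit from 2-probe entries, also chosen after seeing the data, left 26 and 12. Normexp was run on median signals, a choice made after seeing the files; on mean signals it was not run. No paired analysis was possible because 1 group was described and no groups were compared.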
